A study of Homo sapiens with 16 samples.

Results

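The cytosolic heat shock chaperones were examined as 10 protein-coding genes, chosen by name from the 60560 genes that each expression table lists: HSPA1A, HSPA1B, HSPA8, HSP90AA1, HSPH1, HSPB1, DNAJB1, DNAJA1, BAG3 and FKBP4. They were chosen with earlier results of these data known, so their counts beside those of all genes are no independent support. Levels were measured by RNA sequencing in the human colorectal cancer cell lines SW480 and HCT116 after 16 h with curcumin (BCM-95, a curcuminoid extract of turmeric) or with andrographis (an extract of Andrographis paniculata leaves), in 2 separate experiments. Each experiment held 8 libraries, with 2 libraries of treated cells and 2 of non-treated control cells for each line. Both extracts were dissolved in dimethyl sulfoxide (DMSO). Treated and control columns of the andrographis experiment are marked only by A and D, taken here as Andrographis and DMSO, and the direction of each andrographis difference rests on that reading. The labels give no concentration. The paper describes concentrations chosen for each line in its combined treatment and used afterwards, so the dose may have differed between SW480 and HCT116. No combined treatment was analysed here. The labels do not state separate cultures for the 2 libraries of a group. The p-values here measure only the spread between such libraries, which may be technical. Unless stated, that spread was pooled over both lines and both arms of an experiment.

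Heat shock chaperones bind unfolded proteins, keep them from aggregating and help them fold. Heat shock factor 1 (HSF1), a transcription factor, raises their genes when unfolded proteins accumulate, through heat shock elements made of inverted repeats of GAA. In the cytosol, HSP70 proteins work with J-domain proteins, which deliver clients and stimulate ATP hydrolysis, and with nucleotide exchange factors, which release them, and HSP90 completes the folding of kinases and steroid receptors. Tumor cells, colorectal ones included, often carry high levels of these proteins.

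The promoter sequences show which of the genes carry the letters of a heat shock element near their start. RefSeq (GRCh38.p14) gave promoters of 300 bases, 250 before and 50 after the start of transcription, for 9 of the 10 genes, in 12 windows, with none for FKBP4. They were searched on both strands for an inverted pair, GAANNTTC or TTCNNGAA, and for 3 repeats in a row, TTCNNGAANNTTC or GAANNTTCNNGAA. Pairs and triplets overlap, since each triplet contains both pairs. A pair stood in 8 of the 12 windows, in 7 of the 9 genes, and in 13.5% of all 35116 promoter windows. A triplet stood in 3 of the 12 windows, 1 each for HSPA8, HSP90AA1 and DNAJA1, and in 0.49% of all promoter windows. BAG3 and HSPH1 had neither in these windows. The stretches below are those before the start of transcription that hold a match, printed 5′ to 3′ along the gene with the matched letters in capitals.
HSPA1A (chr6:31815412-31815469, plus strand): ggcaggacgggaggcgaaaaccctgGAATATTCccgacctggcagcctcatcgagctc
HSPA1B (chr6:31827608-31827665, plus strand): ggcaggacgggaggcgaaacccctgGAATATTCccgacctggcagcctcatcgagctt
HSPA8 (chr11:123062329-123062386, minus strand): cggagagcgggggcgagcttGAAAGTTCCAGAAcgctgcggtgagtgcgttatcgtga
HSPA8 (chr11:123062154-123062216, minus strand): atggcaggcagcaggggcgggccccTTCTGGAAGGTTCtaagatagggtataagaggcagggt
HSP90AA1 (chr14:102087080-102087157, minus strand): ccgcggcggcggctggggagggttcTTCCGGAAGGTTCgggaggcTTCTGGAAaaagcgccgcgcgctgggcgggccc
DNAJB1 (chr19:14518412-14518499, minus strand): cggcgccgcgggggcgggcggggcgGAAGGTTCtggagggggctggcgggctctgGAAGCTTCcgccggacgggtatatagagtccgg
DNAJA1 (chr9:33025050-33025107, plus strand): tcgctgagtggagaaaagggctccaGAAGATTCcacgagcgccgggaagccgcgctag
HSPB1 (chr7:76302466-76302523, plus strand): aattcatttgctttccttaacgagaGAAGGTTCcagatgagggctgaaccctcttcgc
The windows of HSPA1A and HSPA1B were alike over 93.6% of the 251 aligned columns before their starts, and both held the same pair. HSPA8 held a triplet at each of its 2 stretches, HSP90AA1 held a triplet and a further pair, and DNAJB1 held 2 pairs in the window printed. The triplet of DNAJA1 and a pair in another window of DNAJB1 lay within the 50 bases after the start and are not printed. A match is a description of the letters and shows no binding.

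Levels are given in FPKM, sequenced fragments scaled to gene length and library depth. That unit was inferred from the values. Depth, estimated from the step that 1 read makes in low microRNA genes, ran from 9.4 to 23.1 M (megareads) in the curcumin experiment and from 15.7 to 32.3 M in the andrographis experiment. Mitochondrial genes held 35.8% to 41.8% of the summed FPKM in the curcumin experiment and 0.0395% to 0.0853% in the andrographis experiment, and the tables were normalized separately, so no level was tested across them. Of 8 epithelial and colon markers, EPCAM, CDH1, KRT8, KRT18, KRT19 and CDX2 reached 1 FPKM in all 16 libraries, while the intestinal genes VIL1 and CDX1 were near 0 in nearly all. The summed level of 6 fibroblast, 4 endothelial and 7 immune markers stayed at or below 8.36, 0.985 and 1.83 FPKM per library.

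HSPA1A and HSPA1B, the twin genes of the stress-inducible HSP70, could not be followed. HSPA1A (RefSeq chr6:31815543-31817942) was listed at 0 in all 16 libraries. HSPA1B (RefSeq chr6:31827738-31830254) was listed at 0 in 14 libraries, at 0.0123 FPKM in SW480 control 2 and at 0.0173 FPKM in HCT116 control 1 of the andrographis experiment. Over the gene's length of 2517 bases, 1 read is worth 0.0123 and 0.0173 FPKM at the depths of those libraries. Other genes with near-identical copies were also at or near 0: BOLA2 was listed at 0 in all 16 libraries, and SMN1 reached 0.0738 FPKM at most, though its copy SMN2 reached 1.77 FPKM. Whether reads that match both copies were dropped in counting was not tested, and a level of 0 here does not show that the HSP70 genes were silent. Neither gene nor their sum passed the filter of at least 1 FPKM in at least 2 libraries, which left 8 of the 10 genes tested in each experiment. Processed pseudogenes are known for several of these genes, HSPA8, HSP90AA1 and HSPB1 among them, and the part of shared reads in the levels was not tested.

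In control cells of both lines, HSP90AA1, the inducible cytosolic HSP90, and HSPA8, the constitutive HSP70, stood well above the other genes. In the curcumin experiment HSP90AA1 had 479.9 and 477 FPKM in the SW480 controls and 431 and 462 FPKM in the HCT116 controls. HSPA8 had 362 and 379 FPKM in the SW480 controls and 210.2 and 259.7 FPKM in the HCT116 controls. The order below them differed between the lines. In SW480 it ran DNAJA1, HSPH1, HSPB1, FKBP4, DNAJB1 and BAG3, with no overlap between neighbours. In HCT116 it ran HSPB1, DNAJA1, FKBP4, BAG3, HSPH1 and DNAJB1, and the last 2 overlapped, at 20.3 and 20.3 FPKM for HSPH1 and 18.3 and 21.4 FPKM for DNAJB1. In the andrographis experiment HSP90AA1 and HSPA8 again came first in both lines, and HSPB1 came next. The lowest was BAG3 in SW480, at 12.2 and 11.6 FPKM, and HSPH1 in HCT116, at 21.6 and 22.5 FPKM.

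**Figure D1:**
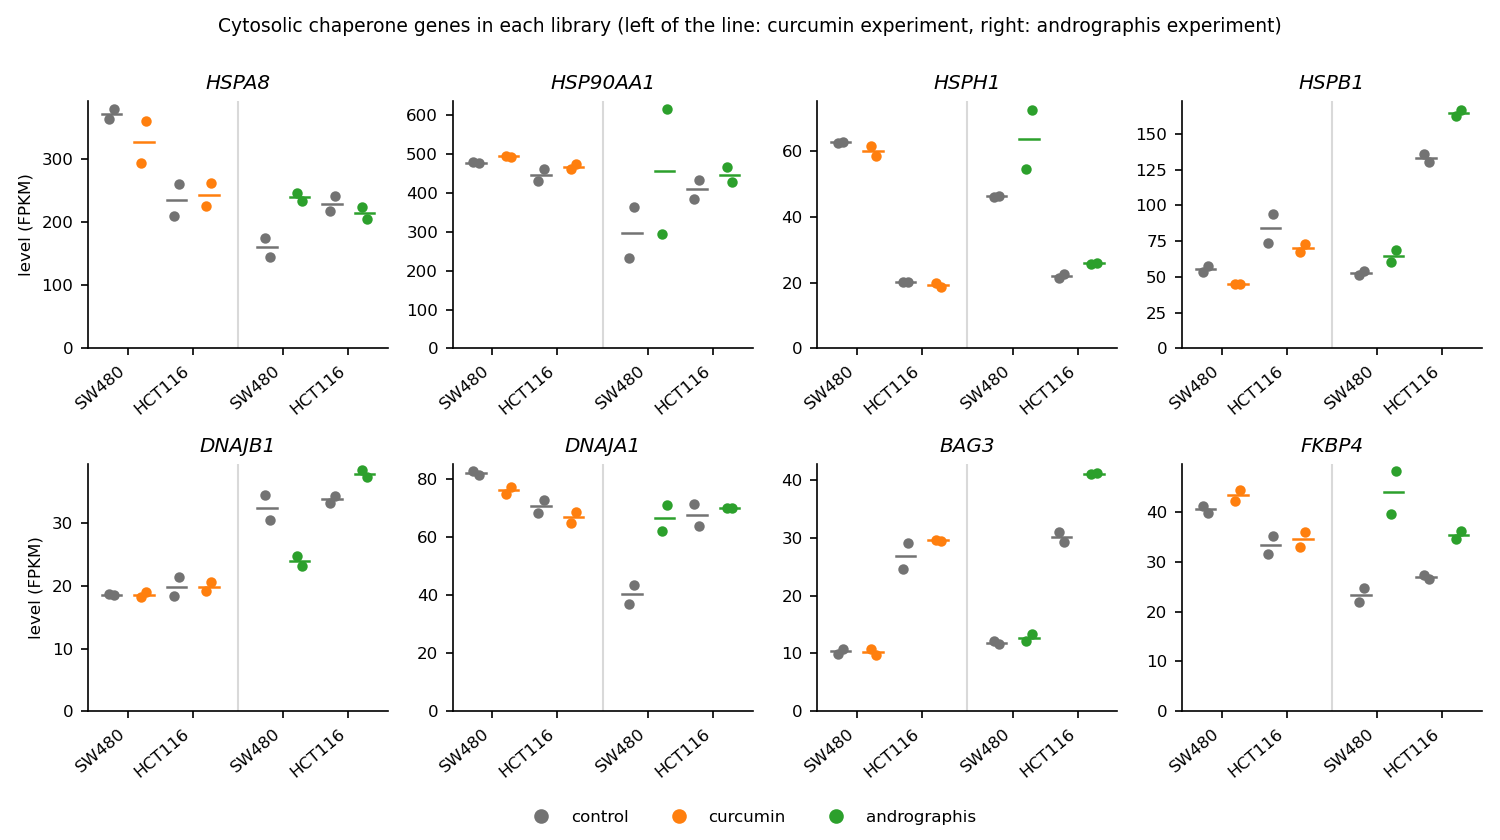
Level of the 8 measured chaperone genes (FPKM, linear axis from 0) in each of the 16 libraries. Points are libraries, bars are the mean of the 2 libraries of a group, grey is control and color is treated. In SW480 cells of the andrographis experiment the treated libraries of FKBP4, DNAJA1 and HSPA8 sit above both controls and those of DNAJB1 sit below, while the libraries of HSP90AA1 overlap.

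The lines themselves were compared first, in control cells. BAG3, a nucleotide exchange factor of HSP70 that is used in selective autophagy, and HSPB1, a small heat shock protein that holds unfolded clients, were lower in SW480 than in HCT116, and HSPH1, the HSP110 exchange factor, was higher, each in both experiments. In the curcumin experiment 6 of 8 genes passed the test (limma, Benjamini-Hochberg adjusted p under 0.05 over all genes tested), 4 higher and 2 lower in SW480, beside 62.7% of all genes tested (33% higher and 29.7% lower). In the andrographis experiment 5 of 8 passed, 1 higher and 4 lower, beside 60.7% of all genes (23% higher and 37.7% lower), so the share of chaperones that differed was near that of all genes.

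HSPH1 had 62.7 and 62.8 FPKM in the SW480 and 20.3 and 20.3 FPKM in the HCT116 controls of the curcumin experiment, and 46.03 and 46.5 against 21.6 and 22.5 FPKM in the other. Its log2 difference was 1.58 (SE 0.05, adjusted p = 1.91e-06) and 1.04 (SE 0.14, adjusted p = 0.00068). Every SW480 library was above every HCT116 library.

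BAG3 had 9.91 and 10.8 FPKM in SW480 and 24.5 and 29.1 FPKM in HCT116 in the curcumin experiment, and 12.2 and 11.6 against 31.00 and 29.3 FPKM in the andrographis experiment. Its log2 difference was -1.29 (SE 0.09, adjusted p = 4.31e-05) and -1.27 (SE 0.10, adjusted p = 4.22e-05), without overlap in either experiment. HSPB1 had 53.6 and 57.4 against 73.9 and 94.2 FPKM and 51.4 and 54.4 against 136 and 130.4 FPKM, with log2 differences of -0.58 (SE 0.12, adjusted p = 0.00459) and -1.31 (SE 0.11, adjusted p = 6.92e-05).

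HSPA8 and DNAJA1, a J-domain partner of HSPA8, passed the test in opposite directions in the 2 experiments. HSPA8 was higher in SW480 in the curcumin experiment (log2 difference 0.66, adjusted p = 0.00731) and lower in the andrographis experiment (-0.52, adjusted p = 0.0156). DNAJA1 was higher in the first (0.22, adjusted p = 0.0159) and lower in the second (-0.73, adjusted p = 0.00258). FKBP4, an HSP90 co-chaperone that serves steroid receptors, passed as higher in SW480 in the curcumin experiment (0.27, adjusted p = 0.0162) and did not pass in the other (-0.20, adjusted p = 0.215). The difference between the experiments was not tested. The median over all genes was 0.01 in the curcumin and -0.18 in the andrographis experiment. In the curcumin experiment DNAJA1 and FKBP4 missed the threshold without SW480 control 1 (adjusted p = 0.0859 and 0.0875), SW480 control 2 (0.0647 and 0.0563) or HCT116 control 1 (0.0666 and 0.0705). In the andrographis experiment HSPA8 missed it without SW480 control 2 (adjusted p = 0.063), HCT116 control 1 (0.0536) or HCT116 control 2 (0.115). After scaling the libraries to one median, HSPA8 gave 0.59 and -0.33 (adjusted p = 0.108 for the second), DNAJA1 gave 0.15 (adjusted p = 0.143) and -0.54, and FKBP4 gave 0.20 (adjusted p = 0.0975) and -0.01. DNAJB1, the J-domain protein that is among the most heat-inducible, did not pass in either experiment, with -0.09 and -0.06, and the second turned to 0.13 after that scaling.

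**Figure D2:**
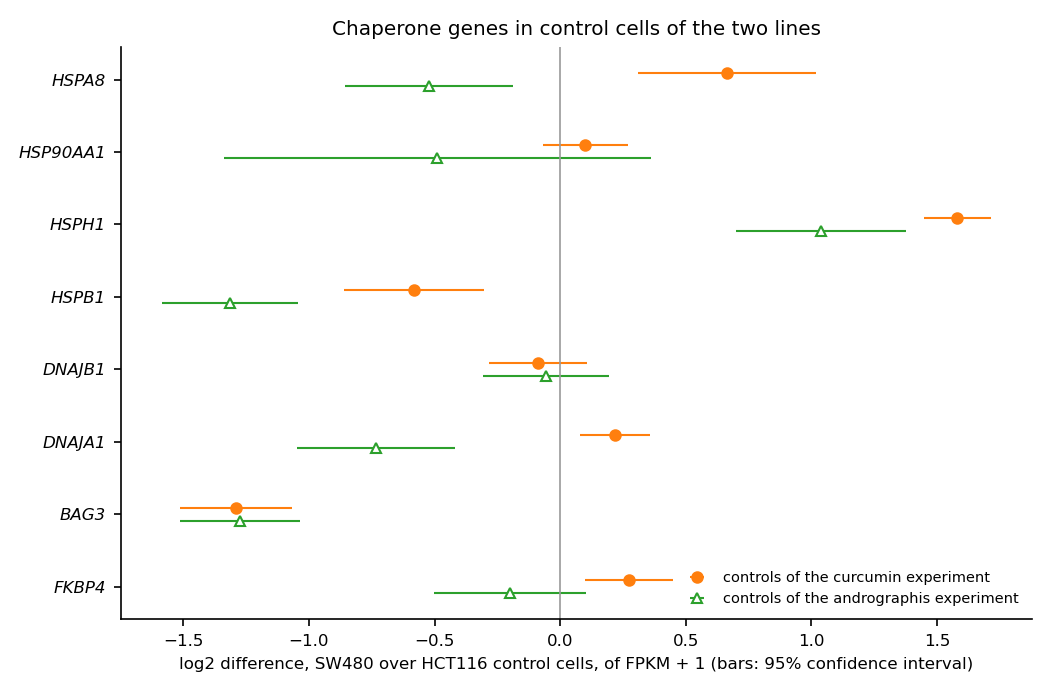
Difference between SW480 and HCT116 control cells (x axis, log2 of FPKM + 1) for the 8 measured chaperone genes, with 95% confidence intervals from limma, in the curcumin (circles) and andrographis (triangles) experiments. HSPH1 lies above 0 and BAG3 and HSPB1 below 0 in both experiments, while HSPA8, HSP90AA1, DNAJA1 and FKBP4 lie on opposite sides of 0.

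Andrographis moved 2 of the 8 measured chaperone genes past the test in SW480 cells, both upward: FKBP4 and DNAJA1. Treated cells were 1.84-fold higher for FKBP4 and 1.64-fold higher for DNAJA1 on the scale of FPKM + 1. None fell past the test, beside 7.28% of all genes called (3.08% higher and 4.21% lower). At an unadjusted p under 0.05, 6 of the 8 genes passed, 5 higher and 1 lower, beside 26.2% of all genes (12.3% higher and 13.9% lower). The median log2 fold change of the 8 genes was 0.49, against -0.00 over all genes tested.

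FKBP4 had 21.9 and 24.7 FPKM in the SW480 controls and 39.6 and 48.3 FPKM in the andrographis-treated libraries. Both treated libraries lay above both controls. The log2 fold change was 0.88 (SE 0.13, adjusted p = 0.0172). DNAJA1 had 36.8 and 43.7 FPKM in the controls and 62.3 and 71.1 FPKM in the treated libraries, again without overlap, and rose by 0.72 (SE 0.13, adjusted p = 0.0298).

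HSPA8 had 175 and 145 FPKM in the controls and 246 and 233 FPKM in the treated libraries. Its log2 fold change of 0.59 (SE 0.14, adjusted p = 0.0554) missed the adjusted threshold, although it passed an unadjusted p under 0.05 with a log2 fold change over 0.5, as FKBP4 and DNAJA1 did (3 of the 8 genes, where 5.16% of all genes passed upward). HSPH1 had 46.03 and 46.5 FPKM in the controls and 54.7 and 72.5 FPKM in the treated libraries (log2 fold change 0.44, SE 0.14, adjusted p = 0.112). HSPB1 had 51.4 and 54.4 FPKM in the controls and 60.3 and 68.6 FPKM in the treated libraries (0.28, SE 0.11, adjusted p = 0.183). In each of these 3 genes the treated libraries lay above the controls.

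DNAJB1 went the other way. It had 34.5 and 30.5 FPKM in the SW480 controls and 24.8 and 23.1 FPKM in the treated libraries, a log2 fold change of -0.42 (SE 0.11, adjusted p = 0.06). Both treated libraries were below both controls. BAG3 had 12.2 and 11.6 FPKM in the controls and 12.1 and 13.3 FPKM in the treated libraries, which overlapped (0.09, SE 0.10, adjusted p = 0.636). HSP90AA1 had 232 and 364 FPKM in the controls and 295 and 617 FPKM in the treated libraries. Its fold change of 0.55 had an SE of 0.36 (adjusted p = 0.387). Replicate 2 was above replicate 1 in both arms, by 0.65 in the controls and by 1.06 in the treated cells on the log2 scale. Each treated library was above the control of the same replicate number, but the labels state no pairing, and none within SW480 was fitted. By the groups' ranges, 5 of the 8 genes were higher without overlap and 1 was lower, where 21.1% of all genes were higher and 23.2% lower in this way.

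The SW480 calls rested on few libraries. The 2 libraries of a group differed by a median of 0.19 (controls) and 0.24 (treated) on the log2 scale over all genes in SW480, and by 0.08 and 0.06 in HCT116. Without SW480 control replicate 2 neither gene passed (FKBP4 adjusted p = 0.0584, DNAJA1 adjusted p = 0.0625), and 0.851% of all genes were called. Without SW480 andrographis replicate 1, 6 genes passed, 5 up and 1 down, while the share of all genes called went from 7.28% to 23.2%. Without SW480 control replicate 1 or andrographis replicate 2 only FKBP4 did. Fitted on the 4 SW480 libraries alone, neither gene passed, nor did any other gene (FKBP4 adjusted p = 0.282). Among the epithelial markers, CDH1, KRT18 and KRT8 fell in the same comparison, by 1.14, 0.97 and 0.61 on the log2 scale (adjusted p = 0.0172, 0.0179 and 0.0411), and EPCAM, CDX2 and KRT19 did not pass. Their part in the chaperone values was not tested, and in bulk RNA a smaller number of cells of a type and less RNA per cell cannot be told apart.

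In HCT116 cells andrographis moved none of the 8 measured genes past the adjusted threshold in limma, beside 6.82% of all genes called. At an unadjusted p under 0.05, 3 genes passed, all higher (BAG3, FKBP4 and HSPB1), beside 23.7% of all genes (10.3% higher). Among the epithelial markers KRT19 rose in this comparison, from a mean of 455 to a mean of 795 FPKM (log2 fold change 0.80, adjusted p = 0.0333), and CDH1 was at -0.49 (adjusted p = 0.132). Their part in the chaperone values was not tested. The median log2 fold change of the 8 genes was 0.19, against -0.02 over all genes, and 5 of the 8 were higher without overlap and none lower, where 34% of all genes were higher and 38.5% lower in this way.

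BAG3 was closest to the threshold. It had 31.00 and 29.3 FPKM in the HCT116 controls and 40.9 and 41.1 FPKM in the treated libraries, a log2 fold change of 0.43 (SE 0.10, adjusted p = 0.0506). The treated libraries were both above the controls and close to each other. Among the alternatives, BAG3 passed without the variance trend (adjusted p = 0.049), with a pseudocount of 10 (0.0224) and over protein-coding genes only (0.045). It also passed in a fit on the HCT116 libraries alone, and did not pass with the replicate number added to the fit.

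FKBP4 had 27.3 and 26.5 FPKM in the controls and 34.6 and 36.1 FPKM in the treated libraries (0.38, SE 0.13, adjusted p = 0.131). HSPB1 had 136 and 130.4 FPKM in the controls and 162 and 167 FPKM in the treated libraries (0.30, SE 0.11, adjusted p = 0.166). HSPH1 had 21.6 and 22.5 against 25.7 and 26.1 FPKM (0.22, adjusted p = 0.418), and DNAJB1 had 33.3 and 34.3 against 38.4 and 37.3 FPKM (0.16, adjusted p = 0.44). In these 4 genes the treated libraries were above the controls.

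The 3 remaining genes overlapped between treated and control HCT116 cells. HSPA8 had 218 and 241 FPKM in the controls and 224 and 205 FPKM in the treated libraries (-0.09, 95% confidence interval -0.43 to 0.24). DNAJA1 had 71.3 and 63.7 against 70.03 and 69.9 FPKM (0.05, interval -0.26 to 0.37). HSP90AA1 had 384 and 434 against 467 and 427 FPKM (0.13, interval -0.72 to 0.98). That interval draws on the spread of HSP90AA1 in both lines. Replicate 1 minus replicate 2 was -0.18 (controls) and 0.13 (treated) in HCT116 on the log2 scale, and -0.65 and -1.06 in SW480. Fitted on the 4 HCT116 libraries alone, 5 of the 8 genes passed (HSPH1, HSPB1, DNAJB1, BAG3 and FKBP4). The number of all genes called went from 874 to 4908 of the 12811 tested.

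Whether the lines answered andrographis differently was tested as the SW480 response minus the HCT116 response. None of the 8 genes passed the adjusted threshold in limma, beside 2.36% of all genes, and 5 had an unadjusted p under 0.05, beside 20% of all genes. The dose may have differed between the lines, and its part was not tested. The difference was 0.68 (SE 0.20, adjusted p = 0.131) for HSPA8 and 0.66 (SE 0.19, adjusted p = 0.123) for DNAJA1. It was 0.50 (SE 0.18, adjusted p = 0.191) for FKBP4. DNAJB1 gave -0.58 (SE 0.15, adjusted p = 0.102), with treated libraries below the controls in SW480 and above them in HCT116. BAG3 gave -0.34 (SE 0.14, adjusted p = 0.242). For HSPH1, HSPB1 and HSP90AA1 the difference was 0.21, -0.03 and 0.42, each with an interval that included 0. Without SW480 andrographis replicate 1, DNAJB1, DNAJA1 and FKBP4 passed (adjusted p = 0.0375, 0.0426 and 0.0363), while the share of all genes called went from 2.36% to 14.3%.

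**Figure D3:**
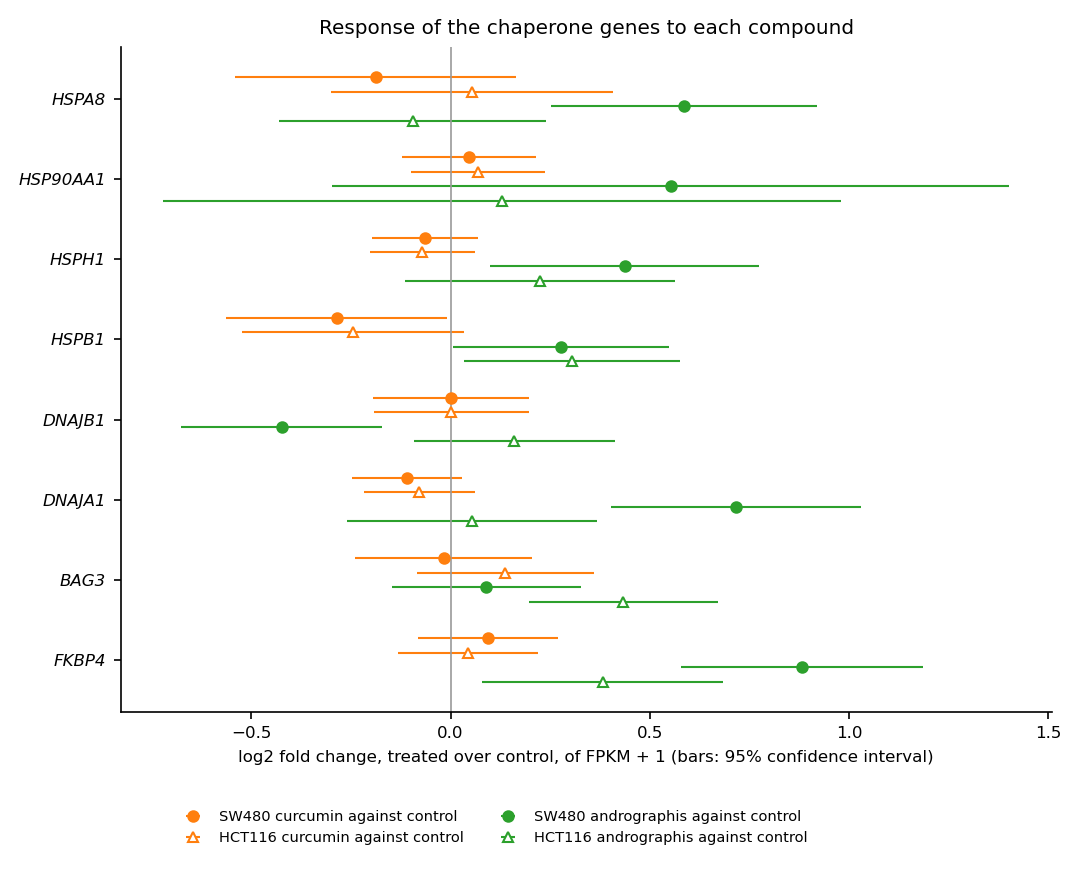
Response of the 8 measured chaperone genes to each extract (x axis, log2 fold change of FPKM + 1, treated over control cells of the same line and experiment), with 95% confidence intervals from limma. Circles are SW480, triangles are HCT116, orange is curcumin and green is andrographis. All curcumin values lie between -0.29 and 0.14, while FKBP4 and DNAJA1 reach 0.88 and 0.72 with andrographis in SW480 cells.

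Curcumin moved none of the 8 measured genes past the test in either line. In SW480 cells 0.306% of all genes were called, and 1 of the 8 genes, HSPB1, had an unadjusted p under 0.05, beside 12.2% of all genes. In HCT116 cells 0.171% of all genes were called, and none of the 8 genes had an unadjusted p under 0.05, beside 11.8% of all genes. The median log2 fold change of the 8 genes was -0.04 in SW480 and 0.02 in HCT116, against -0.02 and -0.00 over all genes.

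HSPB1 had the lowest fold change in both lines. It had 53.6 and 57.4 FPKM in the SW480 controls and 45.3 and 45.3 FPKM in the curcumin-treated libraries, a log2 fold change of -0.29 (SE 0.12, adjusted p = 0.392). In HCT116 it had 73.9 and 94.2 FPKM in the controls and 67.3 and 73.2 FPKM in the treated libraries (-0.24, SE 0.12, adjusted p = 0.476). In both lines the treated libraries lay below the controls.

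HSPA8 had 362 and 379 FPKM in the SW480 controls and 293 and 361 FPKM in the treated libraries (-0.19, 95% confidence interval -0.54 to 0.16). In HCT116 it had 210.2 and 259.7 against 225 and 262 FPKM (0.05, interval -0.30 to 0.41), and the libraries overlapped. HSP90AA1 had 479.9 and 477 against 495 and 493 FPKM in SW480 (0.05, interval -0.12 to 0.21) and 431 and 462 against 462 and 474 FPKM in HCT116 (0.07, interval -0.10 to 0.24).

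The J-domain genes moved little. DNAJA1 had 82.8 and 81.5 against 74.9 and 77.4 FPKM in SW480 (-0.11, interval -0.25 to 0.03) and 68.3 and 72.8 against 64.96 and 68.6 FPKM in HCT116 (-0.08, interval -0.22 to 0.06). DNAJB1 had 18.7 and 18.5 against 18.2 and 18.97 FPKM in SW480 (0.00, interval -0.19 to 0.20) and 18.3 and 21.4 against 19.1 and 20.6 FPKM in HCT116 (0.00, interval -0.19 to 0.20). Its intervals leave room for a change of up to 0.20 in either direction on the log2 scale.

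Of the co-chaperones, HSPH1 had 62.7 and 62.8 against 61.6 and 58.4 FPKM in SW480 (-0.06) and 20.3 and 20.3 against 19.99 and 18.6 FPKM in HCT116 (-0.07). BAG3 had 9.91 and 10.8 against 10.7 and 9.74 FPKM in SW480 (-0.02) and 24.5 and 29.1 against 29.6 and 29.4 FPKM in HCT116 (0.14). FKBP4 had 41.2 and 39.9 against 42.3 and 44.4 FPKM in SW480 (0.09) and 31.6 and 35.3 against 33.1 and 35.9 FPKM in HCT116 (0.04). All 6 intervals included 0, and the highest bound was 0.36, for BAG3 in HCT116. By their ranges, 2 genes were higher and 4 lower without overlap in SW480, where 18.5% of all genes were higher and 27.8% lower in this way. In HCT116 they were 2 higher and 2 lower, beside 18.3% and 19.1% of all genes. The difference between the lines had an unadjusted p over 0.05 for all 8 genes, beside 8.21% of all genes with one under 0.05, and 0% of all genes were called in limma.

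The 2 extracts were not compared with each other, since they were applied in separate experiments with their own controls. Side by side, the log2 fold changes of curcumin and andrographis in SW480 were 0.09 and 0.88 for FKBP4, -0.11 and 0.72 for DNAJA1, -0.19 and 0.59 for HSPA8, and 0.00 and -0.42 for DNAJB1.

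Other genes of the chaperone network were counted by list. With andrographis in SW480 cells, 1 of 7 other J-domain genes and 2 of 18 other co-chaperones of HSP70 and HSP90 tested passed. So did 2 of 5 mitochondrial chaperones tested, and all of these rose. Over all genes tested, 3.08% were called higher and 4.21% lower. The lists of heat shock factors and regulators (4 tested), other HSP70, HSP110 and HSP90 genes (5 tested), small heat shock proteins (1 tested), chaperonin subunits (8 tested) and other heat shock factor targets (7 tested) had no called gene. DNAJA2, a J-domain partner of HSPA8 like DNAJA1, rose by 0.79 (SE 0.10, adjusted p = 0.0108). AHSA1, an activator of the HSP90 ATPase, rose by 0.68 (SE 0.11, adjusted p = 0.0216). HSPBP1, an exchange factor of HSP70, rose by 0.72 (SE 0.12, adjusted p = 0.0245). GRPEL1, the exchange factor of mitochondrial HSP70, rose by 0.95 (SE 0.15, adjusted p = 0.0213), and TRAP1, the mitochondrial HSP90, rose by 0.62 (SE 0.11, adjusted p = 0.0275).

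With andrographis in HCT116 cells, 1 of 5 other HSP70, HSP110 and HSP90 genes and 1 of 18 other co-chaperones tested passed. So did the 1 small heat shock protein tested, and the other lists had no called gene. Over all genes tested, 6.82% were called in either direction. HSPA4, an HSP110 exchange factor, rose by 0.65 (SE 0.15, adjusted p = 0.0464). HSPB8, a small heat shock protein that works with BAG3, had a mean of 0.726 FPKM in the controls and 1.36 FPKM in the treated libraries (0.45, SE 0.09, adjusted p = 0.0321). It reached 1 FPKM in those 2 treated libraries alone, so it was tested only because it was high there, and its call is no independent sign of a rise. AHSA1 rose by 0.62 (adjusted p = 0.0259), as it had in SW480. No gene of these 8 lists fell past the test in either line. Over all genes, 4.21% were called lower in SW480, and 6.82% were called in either direction in HCT116. HSF1 was at 0.32 in SW480 (adjusted p = 0.152) and 0.27 in HCT116 (adjusted p = 0.232). The median log2 fold change ran from 0.17 to 0.35 in SW480 and from 0.07 to 0.36 in HCT116 over the 7 lists with more than 1 gene tested, against -0.00 and -0.02 over all genes. With curcumin none of the genes of these lists passed in limma in either line. Over all genes, 0.306% were called in SW480 and 0.171% in HCT116. ZFAND2A, a zinc finger gene that HSF1 induces, gave 0.40 in SW480 with an adjusted p of 0.129, and HSPA9, the mitochondrial HSP70, gave 0.31 with an adjusted p of 0.0867. UBB, a ubiquitin gene of the same list as ZFAND2A, gave -0.35 with an adjusted p of 0.147. In HCT116 ZFAND2A gave 0.36 and HSPA9 gave 0.29 (adjusted p = 0.188 and 0.121), while UBB gave 0.11 (adjusted p = 0.645).

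**Figure D4:**
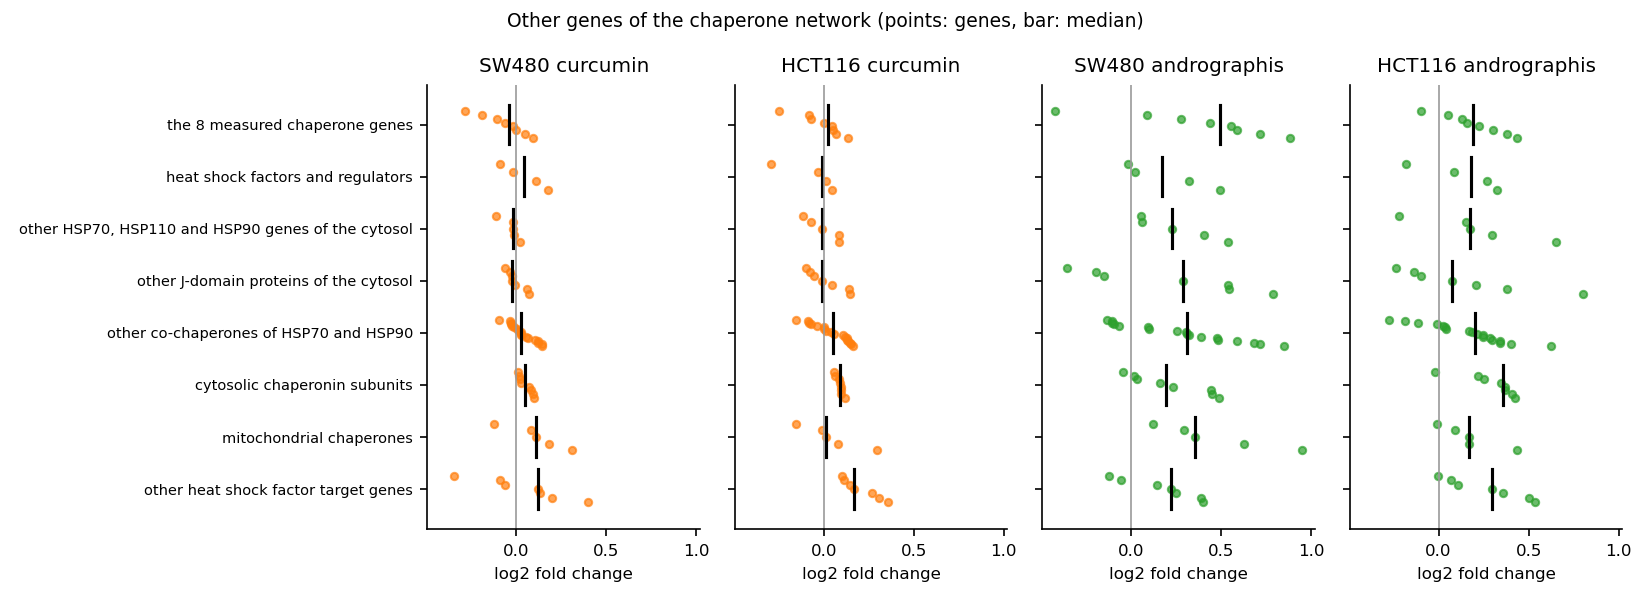
Log2 fold change of FPKM + 1 (x axis), treated over control cells, for the 8 measured chaperone genes and for 7 lists of other chaperone network genes in the 4 comparisons. Points are genes and black bars are list medians. The curcumin points lie near 0, and the andrographis medians lie above 0 in all lists plotted, at 0.49 for the 8 chaperone genes in SW480 and 0.19 in HCT116.

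The genes whose levels ran most like a chaperone reference were sought among 10828 protein-coding genes over the 16 libraries, each centred within its line and experiment. The reference was the mean log2 level of HSPA1A, HSPA1B, DNAJB1 and HSPH1, which rested on the last 2, since the HSP70 pair was at or near 0. The reference followed its own members only in part, with a Pearson r of 0.56 for HSPH1 and 0.33 for DNAJB1. The genes closest to it need not be those closest to either, which was not tested. With andrographis in SW480, HSPH1 had a log2 fold change of 0.44 and DNAJB1 one of -0.42. The r with the reference was 0.94 for LATS2, 0.91 for CPM (carboxypeptidase M) and PER1, 0.90 for ACTB and 0.90 for BCL9L. Among the members outside the reference it was 0.80 for BAG3, 0.68 for HSPB1, 0.38 for FKBP4, 0.35 for HSP90AA1, 0.14 for DNAJA1 and 0.05 for HSPA8. These are descriptions over libraries that share controls and tables, with no test.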

How the data were processed

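RNA was extracted with a miRNeasy kit and made into TruSeq libraries. The authors deposited a table for each experiment, with values as log2(value + 1). They are called FPKM here, since low microRNA genes took whole multiples of 1 step per gene and library: 98.2% of 1541 values were whole in the curcumin table and 100% of 307 in the andrographis table, up to 20 reads and within 0.01 times the read number. The authors' processing notes name STAR 2.7.8a, bcl2fastq 2.20.0.422, DESeq2, Partek 10.0.22.0121 and the builds GRCh38 and mm10, with no role. The counter and annotation are not given in the sources used here. Median depth was 19.3 M (curcumin) and 24.55 M (andrographis).

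Each table was fitted alone with limma 3.58.1 (R 4.3.3) on log2(FPKM + 1), with 4 group means, eBayes with trend and 4 residual degrees of freedom. This scale understates changes of low genes. The spread of a gene was pooled over the 4 groups, so its treated against control SE was the same in both lines. A gene needed 1 FPKM or more in 2 or more libraries, which left 16341 (curcumin) and 12811 (andrographis) genes, and was called at a Benjamini-Hochberg adjusted p under 0.05 over all of these. The sum of HSPA1A and HSPA1B was planned as a test and fell below the filter. The fit was tested on simulated data, with changes of each size put into 66 or 67 well-expressed genes of 1 line. Of simulated log2 changes of 0.5, 11.9% were called in each line with andrographis and 59.7% in each line with curcumin. Of changes of 1, 52.2% (SW480) and 71.6% (HCT116) were called with andrographis, and 83.6% and 91% with curcumin. Between 4 and 16 unchanged genes were called per comparison. The real andrographis fits called more genes than were changed in the simulation, so these shares may not carry over to them. Python 3.11.15, pandas 2.3.3 and matplotlib 3.10.9 served for promoters and figures. The text names all members, up to 3 called genes per list by lowest adjusted p, and the 5 genes most like the reference. Epithelial markers, HSF1, ZFAND2A, HSPA9 and UBB were named after their values were seen. The members and lists were chosen with earlier results of these data known. Alternatives were another scaling, no trend, other filters and pseudocounts, the replicate block, a fit on the compared libraries alone, protein-coding genes only and each library left out.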

Additional observations from a re-analysis of the deposited data

Results flagged for a closer look

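In 4 of the 8 measured chaperone genes the SW480 and HCT116 control libraries did not overlap in either experiment, and the order of the lines was opposite in the 2 experiments. The log2 difference between SW480 and HCT116 controls was 0.66 for HSPA8 in the curcumin experiment and -0.52 in the andrographis experiment. It was 0.22 and -0.73 for DNAJA1, 0.27 and -0.20 for FKBP4, and 0.10 and -0.49 for HSP90AA1. In limma HSP90AA1 passed in neither experiment (adjusted p = 0.252 and 0.274). FKBP4 did not pass in the andrographis experiment (adjusted p = 0.215). The share of all genes with such a reversal was not counted, so 4 of 8 has no background to be set against. Passing in limma is another measure: between the lines, 62.7% of all genes passed in the curcumin and 60.7% in the andrographis experiment. The difference between the experiments was not tested, as the tables were normalized separately. Scaling the libraries to one median kept these signs, and FKBP4 then gave 0.20 and -0.01. The share of mitochondrial genes in the summed FPKM differed between the experiments (35.8% to 41.8% against 0.0395% to 0.0853%), and its part in these values was not tested.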

How the results depend on the processing

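In SW480 cells with andrographis, where 2 genes were called, 1 was called with no filter, 4 with a filter at 10 FPKM and 0 with only the libraries of the comparison, and from 0 to 6 when each library was left out in turn. In HCT116 cells with andrographis, where 0 were called, 1 was called without the trend, with a pseudocount of 10 and over protein-coding genes only, and 5 with only the libraries of the comparison. For the difference between the lines, 0 to 3 were called when each library was left out. The counts with curcumin stayed at 0. In the control cells the called counts kept within 1.5 times. The count of all genes called depended on the settings: it ran from 0 to 302 around 50 in SW480 and from 0 to 198 around 28 in HCT116 with curcumin, and from 0 to 1094 around 933 and from 405 to 4908 around 874 with andrographis, or from 108 to 2956 and from 44 to 72 with a library left out.

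Of 760 values of single genes under an alternative, 703 kept their direction and side of the threshold, 19 gained the call, 19 lost it and 19 changed sign. These values leave out the difference of the curcumin responses between the lines, where several members were near 0. Scaling turned BAG3 in SW480 with curcumin to 0.015 and DNAJB1 between the control lines of the andrographis experiment to 0.13. With each library left out, BAG3 in SW480 with curcumin ran from -0.079 to 0.043 and DNAJB1 from -0.026 to 0.028. In HCT116 with curcumin DNAJB1 ran from -0.11 to 0.11, FKBP4 from -0.032 to 0.12 and HSPA8 from -0.10 to 0.21. DNAJA1 in HCT116 with andrographis ran from -0.027 to 0.13. Between the control lines DNAJB1 ran from -0.19 to 0.021 (curcumin experiment) and from -0.14 to 0.028 (andrographis experiment). The difference of the andrographis responses ran from -0.11 to 0.95 for HSP90AA1 and from -0.12 to 0.065 for HSPB1. The causes were not tested.

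The replicate numbers share only a number, with 2 per group. Same-numbered SW480 control and andrographis libraries deviated together (r = 0.56), and the other pairs correlated between -0.03 and 0.20. The replicate block was a shift common to all 4 groups, so it could not take up a pairing within SW480 alone. With the replicate block the called counts stayed at 2 in SW480 and 0 in HCT116 with andrographis and at 0 with curcumin, and all genes called went from 933 to 884 and from 874 to 791 with andrographis and from 50 to 11 and from 28 to 17 with curcumin. The sum of HSPA1A and HSPA1B was below each filter on low values and was not run without one, since it held 1 read in each of 2 control libraries and none elsewhere. With 2 libraries a group, 4 residual degrees of freedom limit each test.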
